A study of Homo sapiens with 18 samples.

Results

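The genes described here are 10 regulators of the G1 phase of the cell cycle in the human adrenocortical carcinoma line NCI-H295R: the D-type cyclins CCND1, CCND2 and CCND3, the kinases CDK4 and CDK6, cyclin E1 (CCNE1), the kinase inhibitors CDKN1A, CDKN1B and CDKN2C, and the pocket protein RB1. They were taken by gene symbol from a table of 58870 genes. All 10 were among the 15787 genes with enough counts to be tested, although CCND1 passed only through its treated libraries. NCI-H295R is an established, steroid-producing line grown from an adrenal cortex tumour, and every library comes from this single line. Bulk RNA was sequenced after 48 h in 6 groups of 3 replicates: untreated cells, and cells given STA9090, PIK75, BGT226, STA9090+PIK75 or STA9090+BGT226 at a stated 20 nM. The labels do not say whether each drug of a combination was at 20 nM, nor whether untreated cells received vehicle. STA9090 (ganetespib) inhibits the chaperone HSP90, PIK75 inhibits the p110α catalytic subunit of PI3K, and BGT226 inhibits both PI3K and mTOR. The series asked how inhibiting PI3K and HSP90 together acts on these tumour cells.

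As background, D-type cyclins bind CDK4 or CDK6, and the active kinases phosphorylate the RB protein, which otherwise holds E2F transcription factors inactive. Cyclin E with CDK2 continues that phosphorylation, and released E2F switches on the genes for DNA replication. The INK4 inhibitor p18 (CDKN2C) binds CDK4 and CDK6 directly, whereas p21 (CDKN1A) and p27 (CDKN1B) of the CIP/KIP family block cyclin E-CDK2 and can also help D cyclins and CDK4 assemble. PI3K and mTOR signalling is known to raise cyclin D through transcription, translation and protein stability, and CDK4 and CDK6 are folded with help from HSP90 and its co-chaperone CDC37. The RNA measured here does not report protein level or kinase activity.

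Promoter windows running from 250 bases before to 50 bases after a RefSeq start (assembly GRCh38.p14) were at hand for 8 of the 10 genes, 13 windows in all. Some of these starts lie inside the gene, and CCND1 and CCND2 had no window. Stretches that hold a recognised motif are shown for CDKN1A and CCND3, which were called lower with both PIK75 and BGT226. They are also shown for CCNE1, called lower with PIK75 but not with BGT226, and for CDK4, whose window holds an unusual number of E-boxes. Motifs were searched on both strands and are in capitals, and each stretch is written 5′ to 3′ on the gene's own strand. CDKN1A and CCNE1 are shown with GC boxes (GGGCGG, or CCGCCC on the other strand), CDK4 with its E-boxes (CACGTG), and CCND3 with a forkhead motif (GTAAACA).
CDKN1A, chr6:36678560-36678657, plus strand: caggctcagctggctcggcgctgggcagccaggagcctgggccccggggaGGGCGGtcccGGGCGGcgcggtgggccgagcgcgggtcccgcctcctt
CCNE1, chr19:29811741-29811897, plus strand: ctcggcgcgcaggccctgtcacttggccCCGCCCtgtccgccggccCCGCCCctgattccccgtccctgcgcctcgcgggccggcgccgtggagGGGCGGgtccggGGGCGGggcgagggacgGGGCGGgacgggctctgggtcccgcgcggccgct
CDK4, chr12:57752511-57752536, minus strand: gtcaagcggtCACGTGtgatagcaac
CDK4, chr12:57752491-57752516, minus strand: agcaacagatCACGTGgctgccatcg
CDK4, chr12:57752396-57752421, minus strand: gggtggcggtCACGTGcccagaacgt
CCND3, chr6:42048674-42048700, minus strand: cgcggactttGTAAACActtcgccact

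The CDK4 window holds 3 E-boxes, a count reached by 0.094% of 35116 windows of the same length, while 7.26% hold at least 1. The CCNE1 window holds 7 GC boxes, a count reached by 1.5% of windows, and the CDKN1A window holds 4, reached by 9.06%. At least 1 GC box lies in 45% of windows. For these 2 genes only the longest exon-free stretch before the start is shown, which holds 5 boxes for CCNE1 and 2 for CDKN1A. In windows whose GC boxes are not shown, they number 5, 4 and 0 for CCND3 and 3 for CDK4. They number 3 and 0 in the CDK6 windows and 1 in the CDKN1B window. The forkhead motif lies in 1 of the 3 CCND3 windows and in 3.42% of all windows. An E2F motif searched as TTTGGCGC, TTTCCCGC or TTTCGCGC was in none of the 13 member windows and in 2.74% of all. The only RB1 window (chr13:48476200-48476499) lies inside the gene, which starts at 48303726, so the 5′ end of RB1 was not searched. The CCND3 windows at 41941759-41942058 and 41939156-41939455 also lie far inside that gene, whose 5′ end is at 42050357. The CCND3 window with the forkhead motif (42048639-42048938) lies within the annotated gene too. So do the windows of CDKN1A (36678464-36678763, gene start 36676460) and CDK4 (57752261-57752560, 5′ end 57756013). The 3 CDKN2C windows, not shown, hold 0, 6 and 1 GC boxes and 1, 0 and 1 E-boxes. These matches describe letters in the window and do not show binding.

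Libraries held 10.24 to 21.13 M counts (M, mega; median 12.86 M), and levels are given in CPM, the count of a gene per M of library counts after TMM scaling. The adrenocortical markers NR5A1, CYP11A1, CYP17A1, HSD3B2, INHA and MC2R were detected in every library. Of the 6 markers for other cell types, COL1A2, VWF and PTPRC were at 0 in 17, 16 and 17 of the 18 libraries. PECAM1 was at 0 in 11, COL1A1 ranged from 0.625 to 10.75 CPM and CD14 from 0.147 to 1.184. The summed level of these 6 genes was 1.34 to 2.37 CPM with STA9090+PIK75 against 8.29 to 11.4 in untreated cells and 5.12 to 7.61 with PIK75. COL1A1 fell with STA9090+PIK75 (-3.50, adjusted p = 1.25e-09) and PIK75 (-0.63, adjusted p = 0.0152), while CD14 rose with STA9090+PIK75 (1.16, adjusted p = 0.0231). Their part in the results was not tested. Of the 6 adrenocortical markers, 4 fell with PIK75 (10.2% of all tested genes were lower), 6 with STA9090+PIK75 (20.1%), and 2 rose and 2 fell with BGT226 (12.8% and 15.7%) and with STA9090+BGT226 (19.4% and 20.4%). CYP17A1 was lower in all 4 groups, from -0.82 with STA9090+BGT226 to -2.30 with STA9090+PIK75. Untreated replicate 2 stood apart from the other untreated libraries, with 4.79% mitochondrial counts against 10.9% and 7.77%, and 37.6% counts of RNA polymerase III transcripts against 30.7% and 28.6%. The median polymerase III share over all 18 libraries was 35.85%, nearer to replicate 2 than to the other untreated libraries. Without untreated replicate 2, the members called against untreated cells numbered 0 with STA9090, 5 with PIK75, 6 with BGT226, 7 with STA9090+PIK75 and 8 with STA9090+BGT226, against 0, 5, 7, 6 and 8 with it. With all libraries, 2.84%, 18.7%, 28.6%, 38.4% and 39.8% of all tested genes were called (448, 2947, 4513, 6056 and 6287). On leaving out any 1 library of the groups compared, these all-gene counts were 116 to 488, 2092 to 2647, 3264 to 3860, 4971 to 5444 and 5141 to 5661. In bulk RNA, fewer cells expressing a gene and less RNA per cell cannot be told apart.

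Per kilobase of exon, the untreated cells expressed CDK4 most (47.0 CPM per kb), followed by CDKN1A (31.7), CDKN2C (30.0), CCNE1 (19.4), CCND3 (17.8), CDKN1B (14.2) and CCND2 (13.8). CDK6 (3.62) and RB1 (1.33) were far lower, and CCND1 was nearly silent at 0.0308 CPM per kb. CCND3 moves to the second place, at 43.0 CPM per kb, if the length of its longest coding transcript is used in place of all its exons. CCND2 and CCND3 thus supplied nearly all D cyclin RNA. Across the 6 groups, the ratio of the highest to the lowest group mean was 3.15 for CDKN1A, 2.22 for CCND2 and 2.07 for CCND3. It was between 1.46 and 1.71 for CDKN2C, CDK6, CCNE1 and CDK4, and 1.28 and 1.25 for CDKN1B and RB1.

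**Figure D1:**
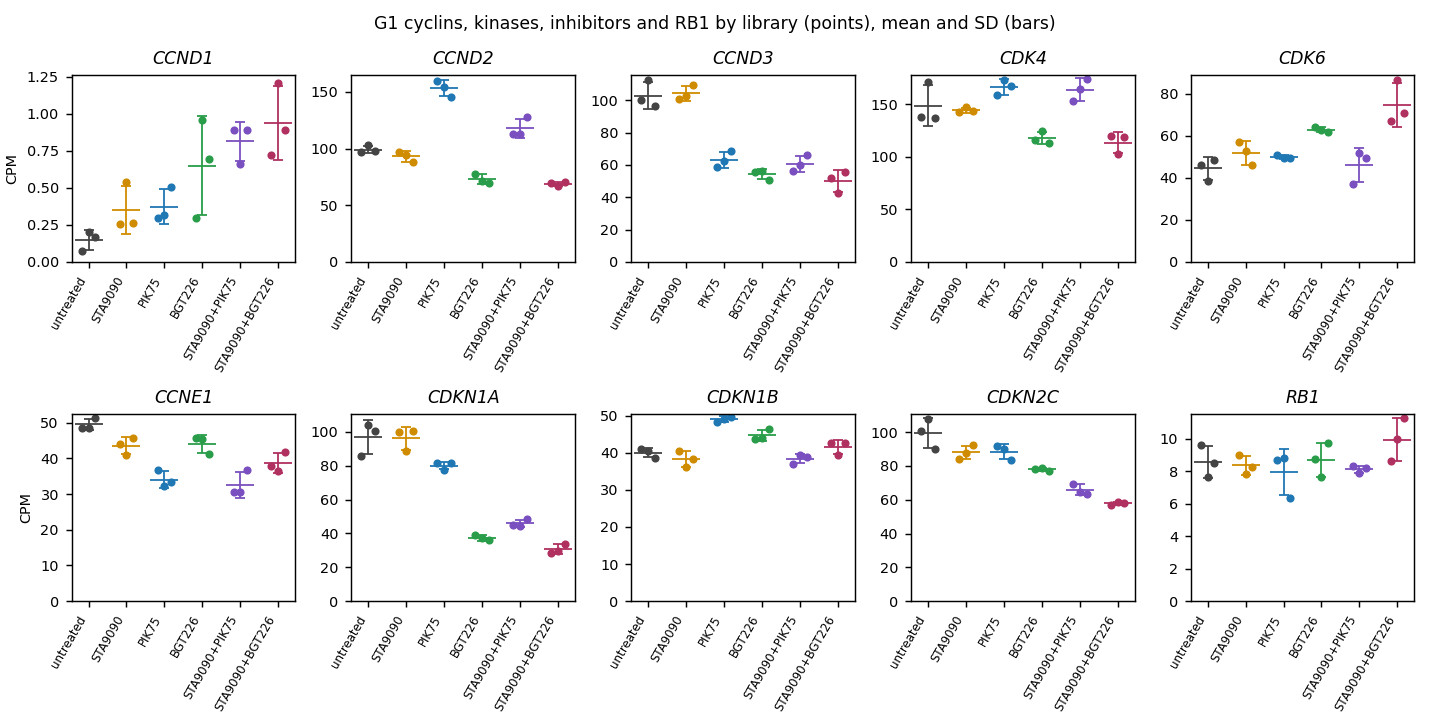
CPM of each of the 10 genes (vertical axes, each from 0) in the 6 groups. Points are single libraries and bars show the mean and SD of 3 replicates. CDKN1A runs from 96.8 CPM in untreated cells to 30.7 with STA9090+BGT226, CCND2 is highest with PIK75 at 153, and RB1 stays between 6.34 and 11.3 in all libraries.

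The main D cyclins moved in opposite directions under PIK75 and in the same direction under BGT226. CCND2 (chromosome 12, 4273772 to 4305350, hg38) stood at 96.8, 103 and 97.9 CPM in untreated replicates 1 to 3, at 160, 155 and 146 with PIK75, and at 77.9, 71.6 and 69.8 with BGT226. All PIK75 libraries were above, and all BGT226 libraries below, every untreated library. The difference from untreated cells was a log2 fold change of 0.63 (SE 0.0698, adjusted p = 2.51e-06) with PIK75 and -0.44 (SE 0.0707, adjusted p = 9.86e-05) with BGT226. Adding STA9090 left CCND2 at 113, 113 and 128 CPM with PIK75 and at 69.5, 66.6 and 70.5 with BGT226. Thus the PIK75 combination lay between PIK75 alone and untreated cells, overlapping neither, while the BGT226 combination overlapped BGT226 alone. The rise with STA9090+PIK75 over untreated cells was 0.25 (SE 0.0699, adjusted p = 0.00823). That call ended without replicate 3 of the combination (0.19, adjusted p = 0.0674) and without the filter on low counts (0.23, adjusted p = 0.0618).

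CCND3 (chromosome 6, 41934933 to 42050357, minus strand) fell in all 4 groups that received a PI3K inhibitor. Untreated cells had 100, 113 and 96.4 CPM, and STA9090 alone had 101, 103 and 109. The level was 59.0, 62.3 and 68.6 CPM with PIK75, 55.6, 56.5 and 50.6 with BGT226, 56.0, 60.3 and 65.9 with STA9090+PIK75, and 51.8, 42.8 and 55.9 with STA9090+BGT226. The highest of these 12 libraries lay below the lowest of the 6 without a PI3K inhibitor, and neighbouring groups among the 4 overlapped. Log2 fold changes against untreated cells were -0.70 (PIK75), -0.93 (BGT226), -0.76 (STA9090+PIK75) and -1.04 (STA9090+BGT226), with adjusted p between 4.92e-08 and 1.89e-05. Neither combination differed detectably from its own PI3K inhibitor alone (-0.06, adjusted p = 0.696, for PIK75; -0.11, adjusted p = 0.615, for BGT226).

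CCND1 (chromosome 11, 69641087 to 69654474), the D cyclin most often amplified in other tumours, rested on very few reads. It had 6 counts over the 3 untreated libraries together, 14 with STA9090, 14 with PIK75, 30 with BGT226, 31 with STA9090+PIK75 and 40 with STA9090+BGT226. In proportion to library size, the ratio to untreated was 4.50 for BGT226 (exact 95% interval 1.84 to 13.2), 5.37 for STA9090+PIK75 (2.21 to 15.8) and 6.22 for STA9090+BGT226 (2.62 to 17.9), intervals that cover counting error only. With STA9090 and PIK75 the ratios were 2.31 (0.835 to 7.35) and 2.44 (0.881 to 7.75). These ratios are a description: CCND1 was kept for testing only through groups where it was high, so that its calls there carry no weight of their own. Even its highest library, at 1.21 CPM, lay below the lowest CCND2 library, at 66.6. The antisense gene LTO1, which shares 497 exon bases with CCND1, had 96 to 308 counts per library. The sources used here do not say whether counting used the strand, so CCND1 reads and LTO1 reads may not be separable. LTO1 averaged 11.7 CPM in untreated cells, 8.28 with STA9090, 14.6 with PIK75, 14.2 with BGT226, 17.5 with STA9090+PIK75 and 13.8 with STA9090+BGT226, and its part in the CCND1 counts was not tested.

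The partner kinases diverged under BGT226. CDK6 (chromosome 7, 92604921 to 92836594, minus strand) was at 46.2, 38.3 and 48.6 CPM in untreated cells, 64.0, 62.8 and 61.8 with BGT226, and 66.8, 86.6 and 70.5 with STA9090+BGT226. Both BGT226 groups lay above every other library. CDK6 rose by 0.50 (SE 0.116, adjusted p = 0.00257) with BGT226 and by 0.75 (SE 0.115, adjusted p = 3.22e-05) with STA9090+BGT226. It was not called with STA9090 (0.23, adjusted p = 0.301), PIK75 (0.17, adjusted p = 0.336) or STA9090+PIK75 (0.06, adjusted p = 0.713).

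CDK4 (chromosome 12, 57747727 to 57756013, minus strand) went the other way. Untreated libraries had 138, 171 and 137 CPM, BGT226 libraries 116, 124 and 113, and STA9090+BGT226 libraries 120, 102 and 119. CDK4 fell by 0.34 on the log2 scale with BGT226 (SE 0.0887, adjusted p = 0.00698) and by 0.39 with STA9090+BGT226 (SE 0.0887, adjusted p = 0.0016). Untreated replicate 2, the library of low mitochondrial share, was well above the other two untreated libraries, and without it the BGT226 call ended (-0.22, adjusted p = 0.0561). Without the same library, CDK4 was called higher with PIK75 (0.27, adjusted p = 0.0287) and with STA9090+PIK75 (0.25, adjusted p = 0.0237). With it those values were 0.16 (adjusted p = 0.229) and 0.14 (adjusted p = 0.23). CDK4 shares 1369 exon bases with the antisense gene TSPAN31, which had 46 to 185 counts per library against 1179 to 2534 for CDK4. TSPAN31 rose with BGT226 (0.77, adjusted p = 0.00128) and with STA9090+BGT226 (1.06, adjusted p = 2.7e-05), where CDK4 fell. Whether counting used the strand is not stated, so reads of the 2 genes may not be separable, and the part of TSPAN31 in the CDK4 counts was not tested.

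Cyclin E1 followed PIK75 more than BGT226. CCNE1 (chromosome 19, 29811898 to 29824308) was at 48.5, 48.6 and 51.3 CPM in untreated cells, 36.6, 32.1 and 33.4 with PIK75, and 30.5, 30.6 and 36.8 with STA9090+PIK75. These PIK75-containing groups overlapped each other and lay below all untreated libraries. The log2 fold changes were -0.54 (SE 0.0828, adjusted p = 0.000116) and -0.60 (SE 0.0831, adjusted p = 1.01e-05). With BGT226 the libraries were at 45.7, 45.3 and 41.2 CPM, a difference of -0.17 that missed the threshold (adjusted p = 0.122). STA9090+BGT226, at 38.0, 36.4 and 41.9 CPM, was lower than untreated cells by a log2 fold change of -0.35 (adjusted p = 0.00189).

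CDKN1A, which encodes p21, was the best-measured gene with the widest range. CDKN1A (chromosome 6, 36676460 to 36687339) was at 85.5, 104 and 101 CPM in untreated cells and at 99.9, 88.5 and 101 with STA9090. It was at 81.4, 77.5 and 81.3 CPM with PIK75 and at 44.8, 44.6 and 48.4 with STA9090+PIK75. BGT226 libraries had 39.1, 37.2 and 35.9 CPM, and STA9090+BGT226 libraries 28.7, 29.7 and 33.9. Apart from untreated and STA9090 cells, which overlapped, each group's libraries lay wholly below those of the group above it. The log2 fold change against untreated cells was -1.37 (SE 0.0824, adjusted p = 5.86e-10) with BGT226, -1.07 (SE 0.0814, adjusted p = 3.22e-09) with STA9090+PIK75 and -1.65 (SE 0.0834, adjusted p = 2.17e-11) with STA9090+BGT226. For PIK75 it was -0.27 (SE 0.079, adjusted p = 0.0196). The PIK75 call ended without untreated replicate 2 (-0.22, adjusted p = 0.0843), untreated replicate 3 (-0.25, adjusted p = 0.0735) or PIK75 replicate 2 (-0.25, adjusted p = 0.0717), and when only those 6 libraries were fitted (adjusted p = 0.0674).

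The sister gene CDKN1B, which encodes p27, did not share that fall. CDKN1B (chromosome 12, 12715058 to 12722371) was at 40.9, 40.4 and 38.7 CPM in untreated cells and at 48.1, 49.1 and 49.7 with PIK75, where all libraries were above all untreated ones. It rose by 0.29 with PIK75 (SE 0.0633, adjusted p = 0.00276). With STA9090+PIK75 it was at 37.0, 39.3 and 38.9 CPM, overlapping untreated cells (-0.06, adjusted p = 0.498). BGT226 (0.16, adjusted p = 0.0615) and STA9090+BGT226 (0.06, adjusted p = 0.508) were not called.

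CDKN2C, which encodes the CDK4 and CDK6 inhibitor p18, was lower in each combination than with either drug alone. CDKN2C (chromosome 1, 50960745 to 50974633) was at 101, 108 and 90.1 CPM in untreated cells, 84.1, 87.9 and 92.1 with STA9090, 92.0, 89.8 and 83.3 with PIK75, and 78.4, 78.5 and 76.98 with BGT226. It was at 69.6, 64.4 and 63.4 CPM with STA9090+PIK75 and at 57.0, 58.6 and 58.3 with STA9090+BGT226. The combination libraries did not overlap any single-drug library. Against untreated cells CDKN2C fell by 0.35 with BGT226 (adjusted p = 0.000716), by 0.60 with STA9090+PIK75 (SE 0.07, adjusted p = 1.28e-06) and by 0.78 with STA9090+BGT226 (SE 0.0702, adjusted p = 5.61e-08). The values for STA9090 (-0.18, adjusted p = 0.17) and PIK75 (-0.17, adjusted p = 0.093) missed the threshold, the latter passing without untreated replicate 3 (-0.24, adjusted p = 0.0321).

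RB1 (chromosome 13, 48303726 to 48599436), the substrate at which these kinases converge, was called in none of the 13 comparisons and contrasts. Its libraries ranged from 6.34 to 11.3 CPM, with group means from 7.95 ± 1.40 (SD, n = 3) for PIK75 to 9.95 ± 1.34 for STA9090+BGT226. Neighbouring groups in that order overlapped throughout. Its difference from untreated cells lay between -0.10 and 0.22 on the log2 scale. RB1 was called only between the combinations when STA9090+BGT226 replicate 1 was left out (0.39, adjusted p = 0.041, against 0.30, adjusted p = 0.0881, with all libraries).

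**Figure D2:**
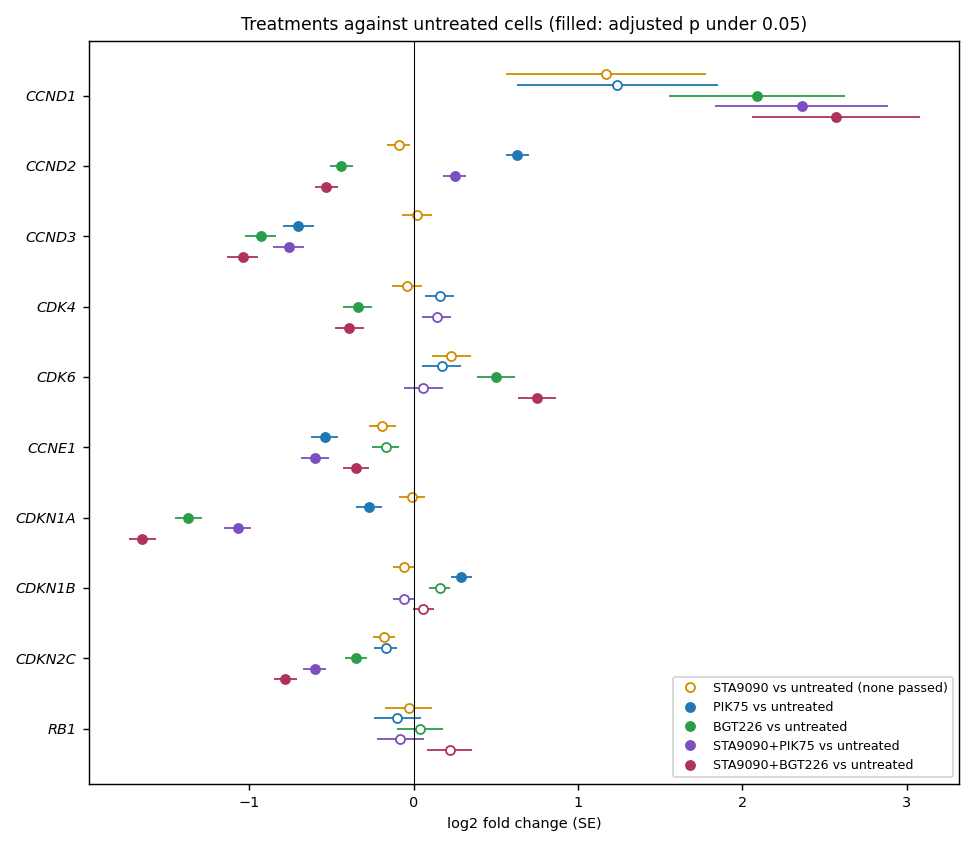
Log2 fold change against untreated cells (horizontal axis, bars are SE) for the 10 genes in the 5 treated groups; filled points passed an adjusted p of 0.05. STA9090 has no filled point, CCND2 lies to the right for PIK75 (0.63) and to the left for BGT226 (-0.44), and CDKN1A reaches -1.65 with STA9090+BGT226.

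Counted over the list, none of the 10 genes passed with STA9090 against untreated cells, where 2.84% of all tested genes did by edgeR. CCNE1 and CDKN2C had an unadjusted p under 0.05, as did 2902 of the 15787 tested genes, and DESeq2 called 0 members. PIK75 changed 5 members, where 18.7% of all tested genes passed: 2 were higher (8.49% of all) and 3 lower (10.2%). BGT226 changed 7 (28.6% of all): 2 were higher (12.8%) and 5 lower (15.7%). STA9090+PIK75 changed 6 (38.4%): 2 were higher (18.3%) and 4 lower (20.1%). STA9090+BGT226 changed 8 (39.8%): 2 were higher (19.4%) and 6 lower (20.4%). CCND1, kept for testing only through its treated libraries, is 1 of the 2 higher members in each of the last 3 groups. For those groups, neither the total nor the count of higher members is therefore read against the background. The members were also chosen with earlier results of these data known, so none of these counts tests them against the background. The median log2 fold change over the 10 genes was -0.04, 0.03, -0.25, -0.07 and -0.37 in that order, against a median over all tested genes between 0.002 and 0.032. The 5 comparisons share the untreated libraries.

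Added to a PI3K inhibitor, STA9090 lowered p18 RNA with both inhibitors and p21 RNA with PIK75. Compared with PIK75 alone, STA9090+PIK75 lowered 4 of the 10 genes, as 14.0% of all tested genes, and raised none (11.3% of all; 25.3% passed in either direction). CDKN1A fell by 0.80 (SE 0.0817, adjusted p = 6.09e-07), CDKN2C by 0.43 (SE 0.0702, adjusted p = 0.000149), CCND2 by 0.38 (SE 0.0695, adjusted p = 0.000399) and CDKN1B by 0.35 (SE 0.0636, adjusted p = 0.000386). Compared with BGT226 alone, STA9090+BGT226 lowered CDKN2C only, by 0.43 (SE 0.0704, adjusted p = 0.00212), where 2.69% of all tested genes passed, 1.70% lower and 0.988% higher. CDKN1A missed the threshold there (-0.28, adjusted p = 0.089) and passed when only these 6 libraries were fitted (-0.27, adjusted p = 0.0297).

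Whether STA9090 acted differently with and without the PI3K inhibitor was tested by an interaction term. For PIK75, CDKN1A was the only member called by edgeR with all libraries and the filter used here: its step with STA9090 was -0.01 in otherwise untreated cells and -0.80 in PIK75-treated cells, an interaction of -0.79 (SE 0.113, 95% interval -1.03 to -0.56, adjusted p = 0.000279), with 9.27% of all tested genes passing. The interactions for CDKN1B (-0.29, adjusted p = 0.0508), CCND2 (-0.29, adjusted p = 0.0709) and CDKN2C (-0.25, adjusted p = 0.122) missed the threshold. CCND2 passed by DESeq2 (-0.29, adjusted p = 0.0486) and CDKN1B under the stricter filter on low counts (-0.29, adjusted p = 0.0475). Each of these 3 also passed when a single library was left out: CDKN1B without STA9090 replicate 2 (adjusted p = 0.0426), CCND2 without STA9090 replicate 3 (adjusted p = 0.0487) and CDKN2C without untreated replicate 2 (adjusted p = 0.0495). For BGT226 no member was called by edgeR, where 0.00633% of tested genes were, and DESeq2 called 0 members. An unadjusted p under 0.05 was reached by 2 members and by 1490 of the 15787 tested genes. The CDKN1A and CDKN2C values were -0.27 (adjusted p = 0.471) and -0.25 (adjusted p = 0.41).

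**Figure D3:**
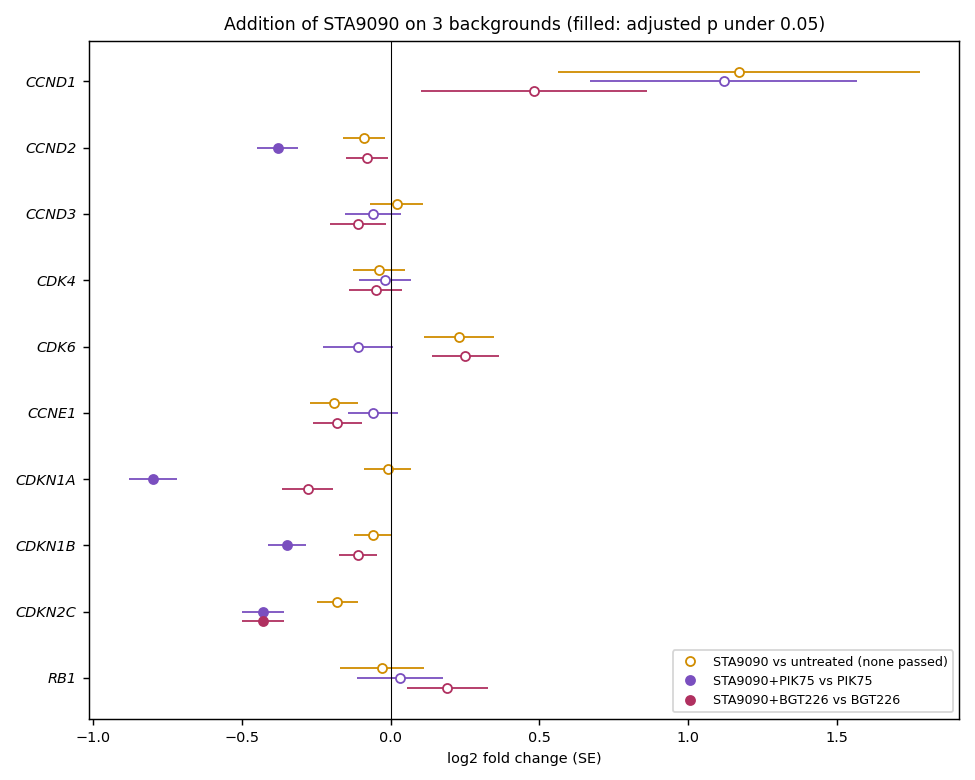
Log2 fold change on adding STA9090 (horizontal axis, bars are SE) for the 10 genes in untreated cells, in PIK75-treated cells and in BGT226-treated cells; filled points passed an adjusted p of 0.05. CDKN1A sits near 0 in untreated cells, at -0.80 with PIK75 and at -0.28 with BGT226, while CDKN2C is at -0.43 with both inhibitors.

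The reverse step adds a PI3K inhibitor to STA9090. STA9090+PIK75 against STA9090 changed 6 members (37.5% of all tested genes), 2 higher (17.7%) and 4 lower (19.8%), among them CCND2 (0.34, adjusted p = 0.000768), CCND3 (-0.78, adjusted p = 1.74e-06), CCNE1 (-0.41, adjusted p = 0.000631) and CDKN1A (-1.07, adjusted p = 5.11e-09). STA9090+BGT226 against STA9090 changed 7 (40.4%), 2 higher (19.5%) and 5 lower (20.9%), among them CCND2 (-0.43, adjusted p = 5.93e-05), CCND3 (-1.05, adjusted p = 3.66e-08), CDK6 (0.52, adjusted p = 0.00106) and CDK4 (-0.35, adjusted p = 0.00391). CCND1 was counted in both (adjusted p = 0.0416 and 0.0137) but lost by DESeq2 (adjusted p = 0.121 and 0.0574), and it is again a gene kept through its treated libraries. Neither the totals nor the counts of higher members are therefore read against the background here. CCND1 was also lost in the first without the filter on low counts (adjusted p = 0.126) and on leaving out STA9090 replicate 1 or 3 or any STA9090+PIK75 library (adjusted p 0.0527 to 0.155). In the second it was lost without STA9090 replicate 1 or 3 or STA9090+BGT226 replicate 2 (adjusted p 0.0522 to 0.0716).

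PIK75 and BGT226 were compared at the same stated 20 nM and 48 h. They differed in 5 of the 10 genes (32.0% of all tested genes), 2 higher with BGT226 (15.5%) and 3 lower (16.5%). CCND2 was lower with BGT226 by a log2 fold change of -1.07 (SE 0.0707, adjusted p = 1.27e-09), CDKN1A by -1.10 (SE 0.0826, adjusted p = 5.22e-09) and CDK4 by -0.50 (SE 0.0887, adjusted p = 0.000226). CCNE1 was higher with BGT226 by 0.37 (SE 0.0832, adjusted p = 0.00201) and CDK6 by 0.33 (SE 0.115, adjusted p = 0.0337). The CDK6 call ended on leaving out any of the 6 libraries (adjusted p 0.0528 to 0.0819). The other 5 missed the threshold: CCND3 (-0.22, 95% interval -0.42 to -0.03), CDKN2C (-0.18, -0.33 to -0.04), CDKN1B (-0.13, -0.26 to 0.00), RB1 (0.14, -0.15 to 0.44) and CCND1 (0.85, -0.10 to 1.79). CCND3 passed with only the compared groups fitted (adjusted p = 0.0346). CDKN2C, at an adjusted p of 0.0518, passed under 4 other settings (adjusted p 0.0376 to 0.0483) and without PIK75 replicate 3 (adjusted p = 0.0325).

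With STA9090 present in both arms, the BGT226 combination differed from the PIK75 combination in 7 of the 10 genes (43.3% of all tested genes), 2 higher (22.4%) and 5 lower (20.9%). CCND2 (-0.77, adjusted p = 3.32e-08), CDKN1A (-0.58, adjusted p = 1.52e-05) and CDK4 (-0.53, adjusted p = 6.66e-05) were lower with the BGT226 combination, and CDK6 (0.69, adjusted p = 6.02e-05) was higher. The calls for CCND3 (-0.27, adjusted p = 0.0223), CCNE1 (0.25, adjusted p = 0.0208) and CDKN2C (-0.18, adjusted p = 0.0448) each depended on single libraries. CCND3 lost its call without STA9090+PIK75 replicate 3 or STA9090+BGT226 replicate 2 (adjusted p = 0.1 and 0.144). CCNE1 lost it without STA9090+PIK75 replicate 1 or 2 or STA9090+BGT226 replicate 3 (adjusted p 0.0983 to 0.171). CDKN2C lost it without any of these 6 libraries but STA9090+PIK75 replicate 3 (adjusted p 0.0625 to 0.174).

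Ratios taken within a library show how the balance between family members shifted, free of the library's scaling. CCND2 and CCND3 were near parity in CPM in untreated cells (ratio 0.963 ± 0.0486, SD, n = 3) and with STA9090 (0.894 ± 0.081). The ratio was 2.44 ± 0.297 with PIK75, 1.94 ± 0.0751 with STA9090+PIK75, 1.35 ± 0.07 with BGT226 and 1.39 ± 0.155 with STA9090+BGT226. The CDKN1B to CDKN1A ratio was 0.417 ± 0.0537 in untreated cells, 0.612 ± 0.0215 with PIK75, 0.837 ± 0.0398 with STA9090+PIK75, 1.20 ± 0.0854 with BGT226 and 1.36 ± 0.118 with STA9090+BGT226. In the BGT226 groups p27 RNA thus exceeded p21 RNA in CPM. The CDK6 to CDK4 ratio was 0.305 ± 0.0715 in untreated cells, 0.535 ± 0.0248 with BGT226 and 0.666 ± 0.157 with STA9090+BGT226, against 0.301 ± 0.0186 with PIK75. These ratios restate the levels given for each gene and were not tested.

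**Figure D4:**
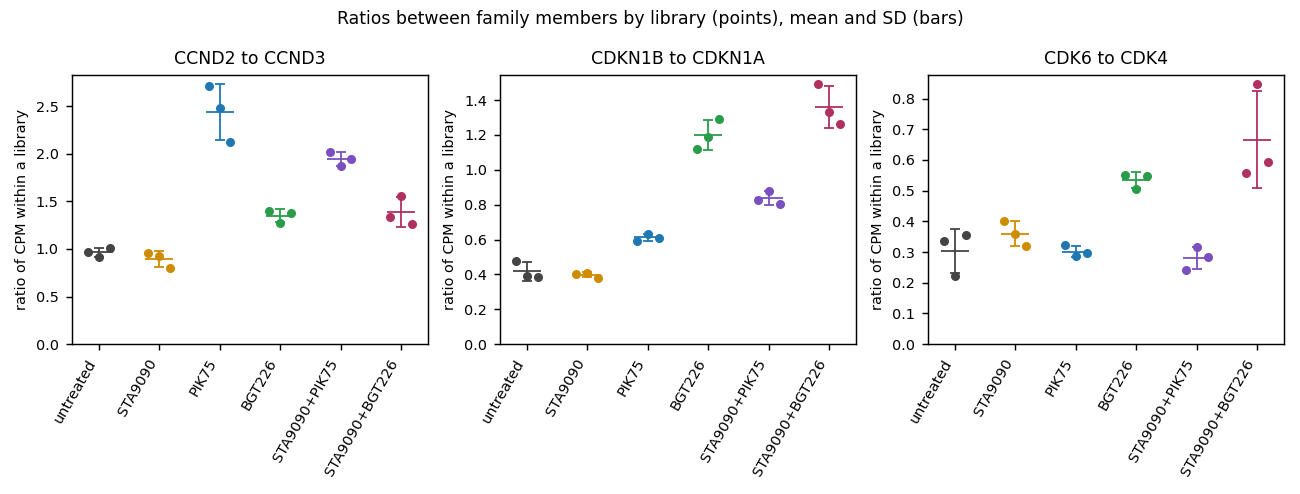
Ratio of CPM within a library (vertical axes, from 0) for CCND2 to CCND3, CDKN1B to CDKN1A and CDK6 to CDK4 in the 6 groups; points are libraries, bars the mean and SD of 3. The first ratio peaks with PIK75 at 2.44, and the other ratios are highest with STA9090+BGT226 at 1.36 and 0.666.

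Across the 18 libraries, members fell into patterns that cut across their families. CCND2 rose and fell with CDK4 (Pearson r = 0.89), and CDKN1A with CCND3 (0.88) and CDKN2C (0.86). The paired genes CCND2 and CCND3 (0.22), and CDKN1A and CDKN1B (-0.08), were nearly unrelated, and CDK4 ran against CDK6 (-0.80). The libraries are 6 groups of 3, so these values mostly describe group means. Among 9864 protein-coding genes with a mean of at least 5 CPM, the 3 most like CDKN1A were LSS (0.99), SCD (0.98) and INSIG1 (0.98), which encode lanosterol synthase, stearoyl-CoA desaturase and a regulator of sterol sensing. LSS, SCD and INSIG1 changed by -1.40, -1.28 and -0.72 with BGT226 and by -1.57, -1.63 and -0.89 with STA9090+BGT226. On adding STA9090 to PIK75 they changed by -0.73, -0.60 and -0.51. With STA9090 alone the values were -0.08, -0.18 and 0.07.

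**Figure D5:**
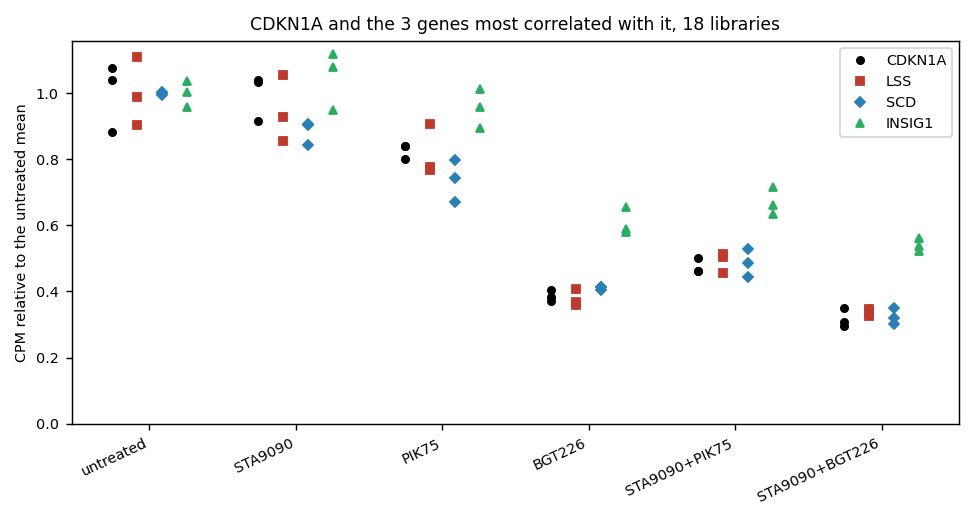
CPM relative to the untreated mean (vertical axis, from 0) of CDKN1A and of the 3 genes most correlated with it, LSS, SCD and INSIG1, in the 6 groups, chosen by correlation over the same 18 libraries. All 4 are lowest with STA9090+BGT226.

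Beyond the 10 genes, other G1 components were read from lists, whose counts stand against the shares of all tested genes that rose and fell: 8.49% and 10.2% with PIK75, 12.8% and 15.7% with BGT226, 18.3% and 20.1% with STA9090+PIK75, and 19.4% and 20.4% with STA9090+BGT226. The lists were chosen with earlier results of these data known, so these shares give a scale and are not a test. Of 10 further G1 cyclins, kinases, phosphatases and inhibitors, 9 had enough counts. The tenth, CDKN1C (p57), stayed between 0.333 and 0.677 CPM as a group mean. With PIK75, 1 rose and 3 fell, with BGT226 none rose and 5 fell, with STA9090+PIK75 2 rose and 3 fell, and with STA9090+BGT226 2 rose and 4 fell. The phosphatase CDC25A, which activates CDK2, fell by 0.92 with BGT226 and by 1.38 with STA9090+BGT226 (adjusted p = 2.95e-07 and 1.15e-09). The INK4 inhibitor CDKN2D fell in all 4 groups with a PI3K inhibitor, by 0.63 with PIK75, 0.94 with BGT226, 0.91 with STA9090+PIK75 and 1.34 with STA9090+BGT226. CCNH, the cyclin of the CDK-activating kinase, rose by 0.52 with PIK75 and by 0.96 with STA9090+PIK75 (adjusted p = 0.0118 and 1.17e-05). CDKN2A fell with BGT226 (-0.37, adjusted p = 0.00231) and STA9090+BGT226 (-0.51, adjusted p = 6.41e-05).

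Of 18 E2F target genes for DNA replication, 15 fell and none rose with BGT226 (median log2 fold change -0.41), and 16 fell with STA9090+BGT226 (median -0.73). With PIK75 2 fell (median -0.07), near the 10.2% of all tested genes that were lower, and with STA9090+PIK75 5 fell and 1 rose (median -0.09). MYBL2, a cell cycle transcription factor, fell by 0.76 with BGT226 and by 1.26 with STA9090+BGT226. RRM2, a ribonucleotide reductase subunit, fell in all 4 of these groups, by 0.88 with PIK75, 0.62 with BGT226, 1.22 with STA9090+PIK75 and 1.21 with STA9090+BGT226. Compared directly, BGT226 was lower than PIK75 for 13 of the 18 (16.5% of all tested genes) and higher for 1 (15.5%).

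Among 12 other pocket protein and E2F genes, 3 fell with PIK75, 4 fell and 2 rose with BGT226, 5 fell with STA9090+PIK75, and 6 fell and 3 rose with STA9090+BGT226. E2F1 fell by 0.60 with BGT226 (adjusted p = 3.79e-05), by 0.32 with STA9090+PIK75 (adjusted p = 0.00647) and by 1.11 with STA9090+BGT226 (adjusted p = 1.48e-08). E2F2 fell in all 4 groups, by 0.66 with PIK75, 0.79 with BGT226, 0.71 with STA9090+PIK75 and 1.22 with STA9090+BGT226. The 2 that rose with BGT226 and the 5 that fell with STA9090+PIK75 stand against 12.8% and 20.1% of all tested genes, and the 3 that fell with PIK75 against 10.2%. The dimerisation partners moved apart with BGT226, TFDP1 falling by 0.50 and TFDP2 rising by 0.40.

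Of 15 genes for the turnover and chaperoning of these proteins, 5 fell with BGT226 and 5 with STA9090+BGT226, while 4 rose and 1 fell with STA9090+PIK75, and 1 rose and 1 fell with PIK75. The PIK75 counts and the 4 that rose with STA9090+PIK75 are near the shares of all tested genes (8.49%, 10.2% and 18.3%), so they do not set the list apart. SKP2 and CKS1B, which together direct p27 to degradation, fell with BGT226 by 0.65 and 0.73 (adjusted p = 2.13e-06 and 5.62e-06). CKS1B rose with STA9090+PIK75 (0.48, adjusted p = 0.000174) and fell with STA9090+BGT226 (-1.02, adjusted p = 5.33e-08). CDC37, the co-chaperone that carries kinases to HSP90, rose on adding STA9090 to PIK75 (0.44, adjusted p = 0.00419). In that comparison 3 of the 15 genes rose and 2 fell, where 11.3% and 14.0% of all tested genes did.

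Of 5 S, G2 and M phase cyclins and kinases, 2 rose and none fell with PIK75, all 5 fell with BGT226, 2 fell with STA9090+PIK75 and 4 fell with STA9090+BGT226. CCNB1, the mitotic B cyclin, rose by 0.28 with PIK75 (adjusted p = 0.0215) and fell by 0.56 with BGT226 (adjusted p = 4.11e-05). Of 16 p53 target genes other than CDKN1A, 2 fell with PIK75, 2 rose and 2 fell with BGT226, 1 rose and 7 fell with STA9090+PIK75, and 2 rose and 3 fell with STA9090+BGT226. The PIK75 and BGT226 counts are near the shares of all tested genes (10.2% lower with PIK75, 12.8% higher and 15.7% lower with BGT226). The STA9090+BGT226 counts do not exceed the shares there (19.4% higher and 20.4% lower). With BGT226, where CDKN1A fell by 1.37, the p53 targets AEN and SESN2 fell by 0.63 and 0.64, and PLK3 and XPC rose by 0.64 and 0.27.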

How the data were processed

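RNA of 18 NCI-H295R libraries, 3 for each of 6 groups, was sequenced as stranded, ribosomal RNA-depleted total RNA, per the labels' protocols. The authors deposited expected counts per gene, which need not be whole. Per the submitters' processing notes the tools were bcl2fastq 2.20, cutadapt 1.18, STAR 2.7.0f and RSEM 1.3.1, with build hg38. No label or header gives the strand setting of the counting or the annotation release. Gene positions and overlaps came from GENCODE 29, with IDs matched without their version.

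Expected counts were rounded. Genes were kept by edgeR 4.0.16 (R 4.3.3; minimum count 10, total 15), scaled by TMM and fitted with the quasi-likelihood test over all 18 libraries in one model of 6 group means, giving 5 comparisons with untreated cells, 6 between treatments and 2 interaction terms. Adjusted p-values are Benjamini-Hochberg over all 15787 tested genes, called at 0.05. Standard errors were derived from the log2 fold change and its F statistic. The script was tested on simulated data. The series states biological replicates without saying that cultures were independent, so p-values measure the spread between these samples. The coefficient of biological variation was 10.6%.

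The members and gene lists were chosen with earlier results of these data known. All 10 members were named throughout, as were, from each other list, up to 4 genes per comparison with the smallest adjusted p under 0.05, and for each member the 3 genes of highest correlation, of which 1 near CDKN2C is not reported here. LTO1 and TSPAN31 were named for their overlap, CDKN1C as the untested gene of its list, and CDC37 under the rule for STA9090+PIK75 against PIK75. Alternatives were RLE scaling, no filter or a stricter filter (1 CPM in 3 libraries), DESeq2 1.42.0, only the groups compared, a replicate block, leaving out the 50 most counted genes, and leaving out each library.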

Additional observations from a re-analysis of the deposited data

Results flagged for a closer look

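The effect of STA9090 on CDKN1A differed between cells with and without PIK75. CDKN1A stood at 85.5 to 104 CPM in untreated cells, 88.5 to 101 with STA9090, 77.5 to 81.4 with PIK75 and 44.6 to 48.4 with STA9090+PIK75. The interaction was -0.79 on the log2 scale (SE 0.113, adjusted p = 0.000279, edgeR), and all 3 libraries with both drugs lay below all 9 of the other libraries in this contrast.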

How the results depend on the processing

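Of 130 member values, 57 were called, and 48 of these kept their call under every alternative run. Over 1787 alternative values none reversed a call, 37 lost it and 17 gained it. A further 64, uncalled both ways, changed sign. Fitting only the groups compared called 2 members for STA9090+BGT226 against BGT226 (1 as reported). For the STA9090 by PIK75 interaction, the stricter filter called 2 members, DESeq2 called 2, and leaving out each library in turn called 1 to 2. The stricter filter removed CCND1 from testing. Over all genes, the count for STA9090 against untreated cells (448) was 769 without the filter, 4 with only the groups compared and 116 to 488 on leaving out a library. For STA9090+BGT226 against BGT226 (424) it was 827, 1334 and 134 to 242. The interaction with PIK75 (1463) gave 809 with only the groups compared and 981 to 1434 on leaving out a library. The interaction with BGT226 (1) gave 269 without the filter, 9 by DESeq2 and 0 to 6 on leaving out a library. The cause was not tested. Depth was lowest for CCND1, with 1 to 16 counts per library, and next for RB1, with 75 to 210.

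Deviations from the group mean correlated at -0.17 to 0.15 over 45 pairs of same-numbered libraries, with 2 over 0.1. Over 90 pairs of differently numbered libraries they correlated at -0.21 to 0.16, with 10 over 0.1. Same-numbered libraries were thus no more alike than others, which cannot show whether their cultures or preparation were shared. With the replicate block, CDKN2C between the combinations lost its call (-0.18, adjusted p = 0.0511), and no other member call changed.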

Other observations

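Under the same rule of highest correlation over 18 libraries, the genes most like CCND2 were NT5DC2 and IRX5 (0.97) and RAB38 (0.96), and those most like CCND3 were ALDOA (0.98), CTNNA1 (0.97) and DUSP14 (0.96). CDK4 was nearest to PGP (0.97), TMEM147 and PRDX6 (0.96), and CDK6 to ZNF780B (0.94), CEP350 and CPLANE1 (0.93). CCNE1 was nearest to OSGIN1 (0.92), CTNND1 and GPRC5A (0.90). CDKN1B was nearest to NRCAM (0.95), ADAMTSL1 (0.94) and AGTR1 (0.91), the angiotensin II receptor of the adrenal cortex. CDKN2C was nearest to the kinetochore gene SPC24 and the polyamine enzyme ODC1 (0.95). The nearest genes of RB1 reached only 0.81 (UBE2H and VIRMA) and 0.80 (RBPJ), and those of CCND1 0.89 (TRPM7), 0.86 (TOGARAM1) and 0.85 (KLF10).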
